A study of Mus musculus with 36 samples.

Results

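The genes described here are 10 genes of insulin and insulin-like growth factor (IGF) signalling. They were followed in mouse gonads of 4 genotypes at the embryonic stages E11.5 and E12.5, while the gonads of the sexes become distinct and shortly after. The genes were chosen by gene symbol from the 21699 genes of each count table, with earlier results of these data known. They are the ligand genes Igf1 and Igf2, the receptor genes Insr, Igf1r and Igf2r, and the adaptor genes Irs1 and Irs2. The others are the binding protein genes Igfbp2 and Igfbp5, and H19, the noncoding neighbour of Igf2. All 10 were found in both tables, and all 10 passed the filter on low counts at both stages, where 14217 genes were tested at E11.5 and 14348 at E12.5.

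IGF1 and IGF2 are secreted growth factors that activate the receptor tyrosine kinases IGF1R and INSR, and the activated receptors pass the signal through IRS adaptors to the PI3K and AKT kinases. IGF2R is not a kinase of this kind: it takes up IGF2 and carries it to lysosomes. Most IGF in tissue is held by binding proteins, which limit or deliver the ligand. Igf2 and H19 are imprinted neighbours, Igf2 being expressed mainly from the paternal and H19 from the maternal chromosome, and mice that lack the insulin and IGF1 receptors are known to fail in testis formation, so that the pathway is a recognised part of mammalian sex determination.

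The KO embryos, MiRC1 mutants in the labels, were del/del for the microRNA cluster miR-17~92 and carried the transgene Tg(CAG-cre)1Nagy, whose ubiquitous CAG promoter drives Cre, so that the loss was not limited to the gonad. The floxed allele was kept on a C57BL/6 × 129S4/SvJae background. Controls are labelled WT, and whether they carried the transgene or a floxed allele is not stated in the sources used here. Controls and KO embryos of each sex gave 4 groups of 3 libraries at each stage, each library from 2 pairs of gonads pooled. The labels name no litter or batch, and p-values measure only the spread between these libraries. Gonad-mesonephros complexes were used at E11.5 and isolated gonads at E12.5, with different library kits, so the stages were fitted apart. The paper reports that KO gonads of both sexes were smaller than control gonads at E11.5. The share of gonad in the E11.5 samples, and its part in any KO difference at that stage, was not tested.

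Total counts were between 17150620 and 34077443 per library at E11.5 and between 11877379 and 44155275 at E12.5, and the 5 sex chromosome genes that were looked at (Xist, Ddx3y, Kdm5d, Uty and Eif2s3y) matched the labelled sex in both control and KO groups. The host gene of the cluster, Mir17hg, reached 98.2 to 154 CPM (counts scaled to a common library size with TMM factors) in KO libraries at E11.5 and 17.6 to 44.6 CPM in controls. Its row covers the whole transcript, so these counts do not check the deletion. From read positions in its bulk RNA-seq, the paper reports that KO gonads lacked reads over the cluster itself. At E12.5 the summed level of 8 Sertoli cell markers was 1727 to 2417 CPM in XY controls and 29.8 to 78.5 CPM in the 9 other libraries, and that of 7 pre-granulosa markers was 106 to 128 CPM in XY controls and 572 to 1021 CPM in the others. The summed level of 5 fetal Leydig markers was 822 to 1767 CPM in XY controls and 31.3 to 53.9 CPM in the others. At E11.5 the Sertoli sum already differed, with 180 to 344 CPM in XY controls and 78.7 to 116 CPM in the others. In such bulk samples fewer cells of a type and less RNA per cell cannot be told apart.

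The microRNAs that the mutants lack are shown first, because their seeds define which of the 10 transcripts carry matching letters. They lie between bases 115043684 and 115044496 of chromosome 14 (GRCm38, plus strand) and are given from 5′ to 3′ as RefSeq lists them, with the seed, bases 2 to 8, in capitals. miR-17-5p and miR-20a-5p share a seed, and so do miR-19a-3p and miR-19b-3p.
mmu-miR-17-5p: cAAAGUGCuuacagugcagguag
mmu-miR-20a-5p: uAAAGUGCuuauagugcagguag
mmu-miR-18a-5p: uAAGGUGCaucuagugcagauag
mmu-miR-19a-3p: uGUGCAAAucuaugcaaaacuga
mmu-miR-19b-3p: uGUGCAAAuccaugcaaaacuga
mmu-miR-92a-3p: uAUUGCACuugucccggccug

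The longest annotated 3′ UTR of each of the 9 coding members was searched on its own strand for the reverse complement of each seed: GCACTTT for miR-17, GCACCTT for miR-18, TTTGCAC for miR-19 and GTGCAAT for miR-92. A match of these 7 bases is called a 7mer-m8, and one that is followed by an A is an 8mer. At least 1 match was found in 6 of the 9 transcripts, and an 8mer in 2 of them, Igf1 and Igf2r, both for miR-19. Many annotated 3′ UTRs of like length (0.8 to 1.25 times) also held a match of any of these seeds. The share was 72.1% for Insr, 80.3% for Igf1r, 32.9% for Igf2r, 76.6% for Igf1, 57.2% for Igf2 and 69.6% for Igfbp5. An 8mer was held by 39.3% of those like Igf1 and 12.4% of those like Igf2r. No member held a match of the miR-17 seed, while 42.5% of the 610 annotated 3′ UTRs of like length to that of Igf1 (0.8 to 1.25 times) and 11.8% of the 3080 of like length to that of Igf2r did. A match is a description of letters, not a site shown to be used.

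The matches in Igf1, Igf2r, Igf2 and Igfbp5, whose levels differed in KO gonads, are given with their surroundings, the matching bases in capitals, so that they can be read against the seeds above. Igf1, on the plus strand of chromosome 10, had a miR-19 8mer, and a miR-18 7mer-m8 that overlaps a miR-19 7mer-m8 near the start of its 6308-base 3′ UTR. Igf2r, on the minus strand of chromosome 17, had a miR-19 8mer and a miR-19 7mer-m8 in 1304 bases, and 13.2% of 3′ UTRs of like length held a miR-19 match, as did 37.2% for Igf1. The 3050-base 3′ UTR of Igf2 had a single miR-18 7mer-m8, and those of Igf1r, Insr and Igfbp5 had a single miR-92 7mer-m8 each.
Igf1, miR-19 8mer, chr10:87933996-87934017: tacatgtgcaTTTGCACAtgcg
Igf1, miR-19 7mer-m8, chr10:87930919-87930939: tttaaaaagcTTTGCACcttg
Igf1, miR-18 7mer-m8, chr10:87930922-87930942: aaaaagctttGCACCTTgcaa
Igf2r, miR-19 8mer, chr17:12682762-12682783: gaagccttaaTTTGCACAgggt
Igf2r, miR-19 7mer-m8, chr17:12683007-12683027: gttgcagctcTTTGCACgaat
Igf2, miR-18 7mer-m8, chr7:142653229-142653249: cttatcccaaGCACCTTtagt
Igfbp5, miR-92 7mer-m8, chr1:72858703-72858723: aaccactaaaGTGCAATgttt
Irs1, Irs2 and Igfbp2 had no match of the 4 seeds. Of 3′ UTRs of like length, 71% held a match for Irs1 and 47.6% for Irs2, while 7.7% did for the 312 bases of Igfbp2.

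The 10 genes differed widely in level. On the scale of CPM per kb of exon, which sets genes of different length side by side, H19 was highest at E12.5 with a median of 2167 over the 12 libraries, followed by Igf2 (608), Igfbp5 (430), Igfbp2 (109) and Igf2r (54.5). Igf1r (13.6), Igf1 (5.94 to 19.5 over the libraries), Irs1 (8.79), Insr (7.97) and Irs2 (2.78) were far lower, in that order. The first 6 places were the same at E11.5, where H19 had a median of 2738 CPM per kb and Igf2 one of 782. The ligand RNA was thus almost all Igf2: the lowest Igf2 library, at 336 CPM per kb, was far above the highest Igf1 library at 19.5. The ranges over the 12 libraries of E12.5 did not overlap between H19 and Igf2, Igfbp5 and Igfbp2, Igf2r and Igf1r, or Insr and Irs2. Those of the other neighbours in the order overlapped.

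**Figure D1:**
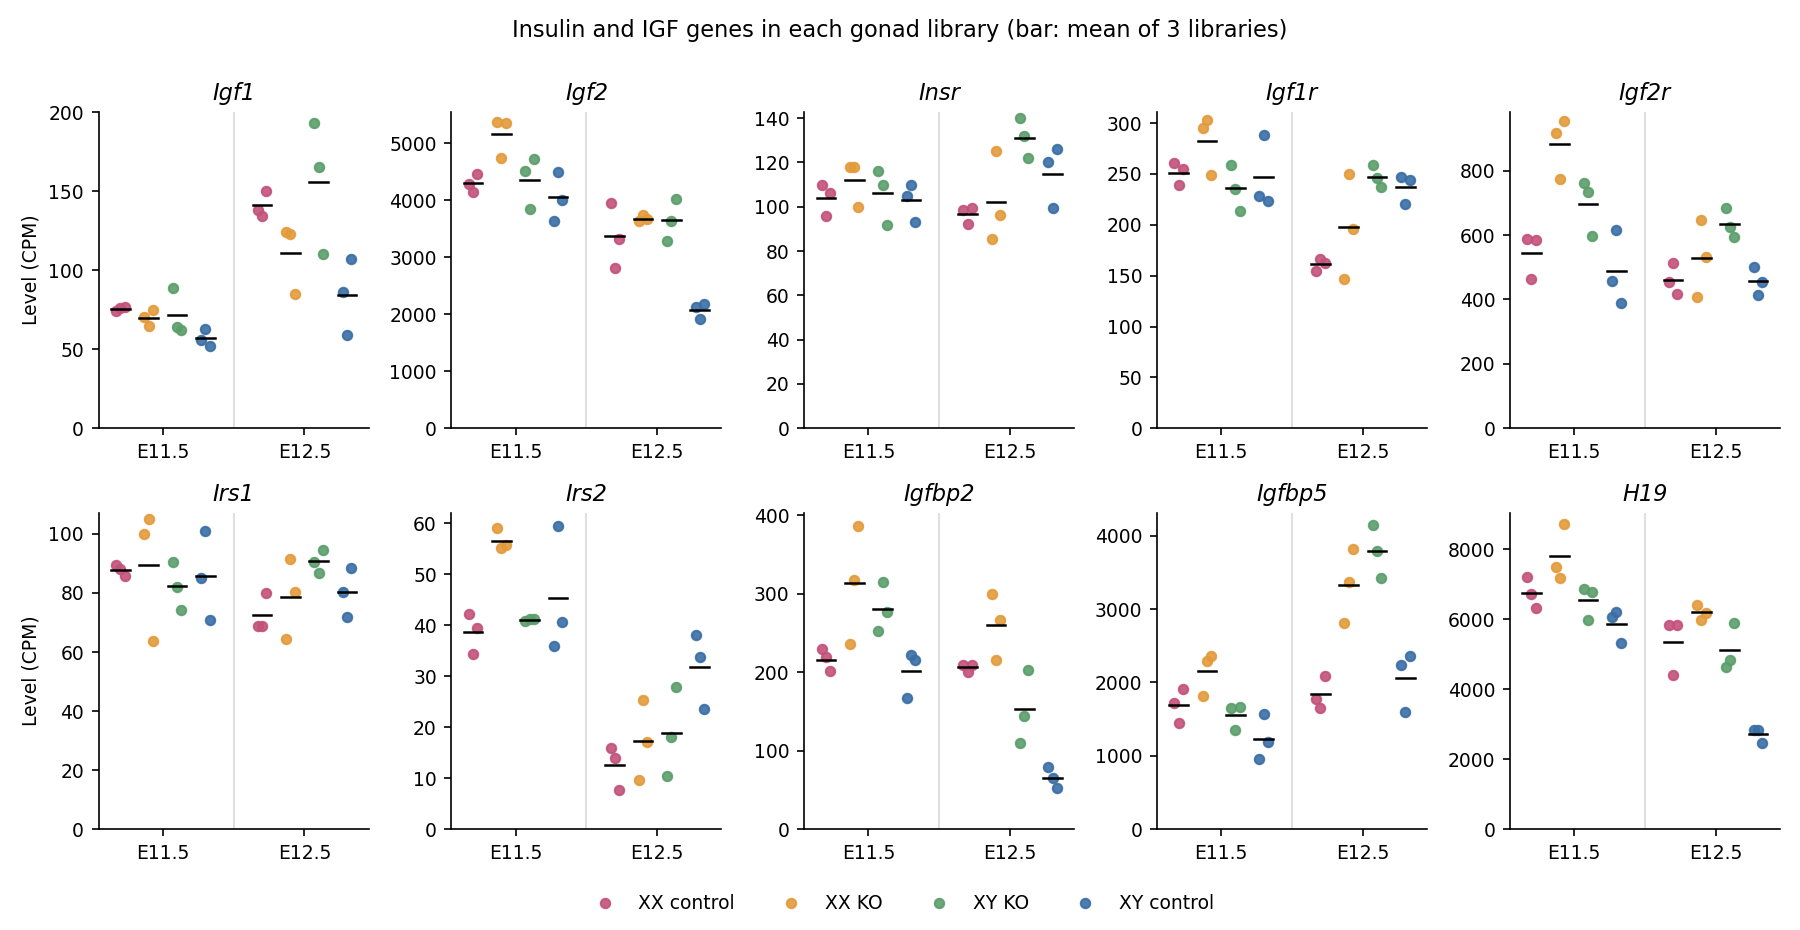
Level of each of the 10 genes in CPM (linear axis from 0) in every library at E11.5 and E12.5; points are libraries, coloured by genotype, and bars are means of 3 libraries. At E12.5 the 3 XY controls lie below the 9 other libraries for Igf2, H19 and Igfbp2.

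At E12.5, XX and XY control gonads differed in 6 of the 10 genes. Igfbp2, H19, Igf2 and Igf1 were higher in XX controls, and Igf1r and Irs2 were higher in XY controls, in edgeR's quasi-likelihood test at a false discovery rate (FDR) under 0.05. Over all tested genes 23.8% were called in this comparison, and the median log2 difference, XX minus XY, was -0.07 over the 10 members and 0.01 over all genes. In XY KO gonads, compared with XY controls, 6 of the 10 were called and all 6 were higher: Igfbp2, H19, Igf1, Igfbp5, Igf2 and Igf2r. In that comparison 20.6% of tested genes were called in either direction and 10.3% as higher, and the median log2 difference was 0.64 over the members and -0.01 over all genes. Both comparisons use the same XY control libraries, so a low value in these controls enters both.

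In XX KO gonads, compared with XX controls, only Igfbp5 was called at E12.5, where 5.26% of tested genes were called and 3.42% as higher. No member was called between the KO sexes (XX KO against XY KO) in edgeR or in DESeq2, where edgeR called 0.153% of all genes, although 3 members (Insr, Igf1 and Igfbp2) had an unadjusted p under 0.05. The difference between the effect of the deletion in XY and in XX gonads was tested as an interaction, which called 12.9% of genes, 5.9% with a larger effect in XY. Igf1, Igf2 and H19 were called in this test, all with the larger effect in XY, and DESeq2 also called Igfbp2.

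**Figure D2:**
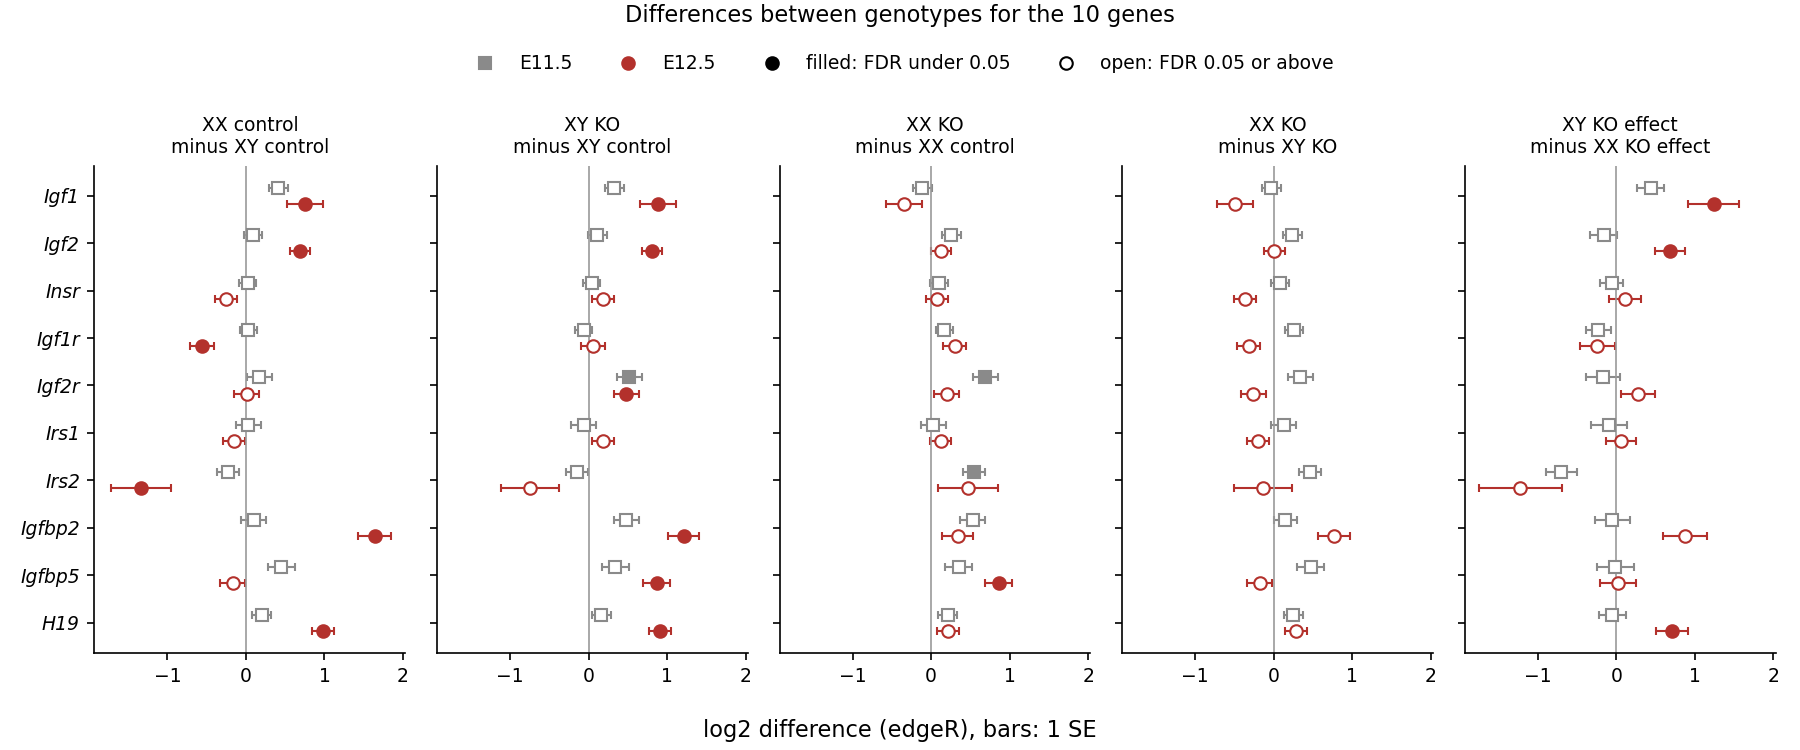
log2 difference of each gene (horizontal axis) with 1 standard error in 4 comparisons of genotypes and in the difference between the effects of the deletion in XY and XX gonads. Filled symbols have an FDR under 0.05 over all tested genes: at E12.5 (red circles) there are 6 in each of the first 2 panels, 1 in the third, none in the fourth and 3 in the fifth, and at E11.5 (grey squares) there are none, 1, 2, none and none.

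At E11.5 no more than 2 members were called in any comparison. No member was called between XX and XY controls in edgeR or in DESeq2, where edgeR called 0.886% of all genes and 2 members, Igf1 and Igfbp5, had an unadjusted p under 0.05. Igf2r alone was called in XY KO gonads (12.7% of genes called, 5.88% as higher), and Igf2r and Irs2 in XX KO gonads (3.27% of genes called, 1.81% as higher). No member was called between the KO sexes (0.0844% of genes), where 4 had an unadjusted p under 0.05, or in the interaction (0.0352% of genes), where 2 did. DESeq2 called none in either. When replicate 2 of the XY controls was left out, Igf1 and Igfbp5 were called between the controls and Igf1, Igfbp2, Igfbp5 and Igf2r in XY KO gonads.

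Igf2, on the minus strand of chromosome 7 (GRCm38, 142650766 to 142666816), encodes the main growth factor of the fetus. Its level at E12.5 was 2134, 1920 and 2182 CPM in XY controls. It was 3960, 2812 and 3321 CPM in XX controls, 3293, 3634 and 4023 CPM in XY KO gonads and 3637, 3735 and 3665 CPM in XX KO gonads. All 9 libraries of the last 3 genotypes were above all 3 XY controls, and those 3 genotypes overlapped each other. XX controls exceeded XY controls by 0.69 ± 0.13 on the log2 scale (SE, FDR 0.00136), and XY KO gonads did so by 0.81 ± 0.13 (FDR 4.9e-04), a 1.76-fold difference. The effect of the deletion in XX gonads was 0.13 ± 0.13 (FDR 0.574), and the KO sexes differed by 0.01 ± 0.13 (FDR 0.972).

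The interaction for Igf2 was 0.68 ± 0.19 (FDR 0.027). This call was lost, with an FDR of 0.05 to 0.0738, in 7 of the 12 fits that left out a library (XX control 1 or 3, XX KO 1 or 3, XY control 2, XY KO 2 or 3). The 2 differences from XY controls were called in all 12. At E11.5, with the mesonephros in the sample, the means of Igf2 ran from 4050 ± 430 CPM (SD, n = 3) in XY controls to 5155 ± 363 CPM in XX KO gonads, and no comparison was called. The XX KO libraries (4735 to 5375 CPM) were above all XX controls (4154 to 4458 CPM), with a log2 difference of 0.26 ± 0.12 (FDR 0.297).

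Igf1, on chromosome 10 (87858265 to 87937042, plus strand), encodes the second IGF ligand. At E12.5 it stood at 85.9, 58.8 and 107 CPM in XY controls, 138, 134 and 150 CPM in XX controls, 193, 165 and 110 CPM in XY KO gonads and 124, 123 and 84.7 CPM in XX KO gonads. XX controls and XY KO gonads lay above the XY controls without overlap, while XX KO gonads overlapped them. The log2 difference was 0.75 ± 0.23 for XX against XY controls (FDR 0.0281) and 0.89 ± 0.23 for XY KO against XY controls (FDR 0.0121). In XX gonads the KO libraries were all below the controls, with a log2 difference of -0.34 ± 0.23 that was not called (FDR 0.372). The interaction was 1.24 ± 0.32 (FDR 0.0196).

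These Igf1 calls rest on a wide spread in XY controls and XY KO gonads. Leaving out 1 library lost the call between controls in 5 of 12 fits (each XX control in turn, XY control 1 or 2, FDR 0.0509 to 0.124), that in XY KO gonads in 2 (XY control 2 or XY KO 1, FDR 0.0602 and 0.0604) and the interaction in 3 (XX KO 3, XY KO 1 or 2, FDR 0.0511 to 0.0529). At E11.5 Igf1 was 74 to 76.7 CPM in XX controls and 52.1 to 62.8 CPM in XY controls, which did not overlap, with a log2 difference of 0.41 ± 0.12 that missed the threshold (FDR 0.134). It was called without XY control 2 (log2 difference 0.49, FDR 0.0208).

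Of the receptor genes, Igf1r (chromosome 7, 67952827 to 68233668) differed between control gonads and Insr (chromosome 8, 3122061 to 3279617) was called in no comparison. Igf1r, the gene of the main IGF receptor, was 155, 166 and 162 CPM in XX controls at E12.5 and 247, 220 and 244 CPM in XY controls. XY KO gonads kept levels of 259, 246 and 237 CPM, within or just above the range of XY controls, and XX KO gonads spread from 147 to 250 CPM, with the highest value in replicate 2. XX controls were lower than XY controls by 0.56 on the log2 scale (log2 difference -0.56 ± 0.15, FDR 0.0159), a call that was lost without XX control 1 (FDR 0.0574). XY KO gonads differed from XY controls by 0.06 ± 0.15 (FDR 0.835).

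Insr, the insulin receptor gene, lay between 85.4 and 140 CPM in the 12 libraries of E12.5 and between 91.8 and 118 CPM at E11.5. The largest difference among the 4 comparisons of genotypes was that between the KO sexes at E12.5, where XX KO and XY KO means were 102 ± 20.7 and 131 ± 9.27 CPM (log2 difference -0.36 ± 0.14, FDR 0.235). Replicate 2 of the E12.5 XX KO libraries had the highest value of its group for Insr (125 CPM), Igf1r (250 CPM), Igf2r (647 CPM), Irs1 (91.5 CPM) and Irs2 (25.3 CPM). Without it, Insr, Igf1r and Igfbp2 were called between the KO sexes, XX minus XY, with log2 differences of -0.53 (FDR 0.0244), -0.53 (FDR 0.0264) and 0.89 (FDR 0.0227), whereas no member was called with all libraries.

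Igf2r, on chromosome 17 (12682406 to 12769664, minus strand), encodes the receptor that clears IGF2 and was the member called in both KO sexes at E11.5. At that stage its level was 457, 615 and 388 CPM in XY controls and 763, 734 and 597 CPM in XY KO gonads, which overlapped. It was 589, 465 and 584 CPM in XX controls and 917, 775 and 954 CPM in XX KO gonads, which did not. The log2 difference was 0.52 ± 0.16 in XY gonads (FDR 0.0428) and 0.69 ± 0.16 in XX gonads (FDR 0.0274), and the difference between these effects was not called (interaction -0.17 ± 0.22, FDR 0.798). At E12.5 XY KO gonads (684, 626 and 595 CPM) were above XY controls (502, 414 and 454 CPM) without overlap, by 0.48 ± 0.16 (FDR 0.0428), while XX KO gonads spread from 408 to 647 CPM and overlapped XX controls at 418 to 512 CPM (0.20 ± 0.16, FDR 0.453).

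The summed level of 6 interstitial and mesenchymal markers at E11.5 was 6000 to 7675 CPM in XX KO gonads and 4684 to 5258 CPM in XX controls, and 4990 to 6266 CPM in XY KO gonads and 3934 to 5406 CPM in XY controls, with Pdgfra and Tcf21 called as higher in both sexes. Their part in the Igf2r result was not tested. These Igf2r calls stood near the threshold. In XY gonads the E11.5 call was lost in 7 of 12 fits without a library (XX control 1 or 3, XX KO 1, XY control 1 or 3, XY KO 1 or 2, FDR 0.0535 to 0.15) and the E12.5 call in 7 (XX control 1 or 3, XY control 2 or 3, each XY KO library in turn, FDR 0.0516 to 0.163), and in XX gonads at E11.5 in 5 (each XX control in turn, XX KO 1 or 3, FDR 0.0682 to 0.151). A fit on only the libraries compared also lost the E11.5 call in XY gonads (FDR 0.101). Airn, the noncoding antisense RNA that starts within Igf2r and silences its paternal copy, was at 10.1 to 16.4 CPM at E12.5 and was called in no comparison at either stage. It overlaps Igf2r on the other strand, and the strand setting of the authors' counting is not given, so reads of the pair may not be fully separated.

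The adaptor genes Irs1 and Irs2 encode the docking proteins that the active receptors phosphorylate. Irs1, on chromosome 1, lay between 64.3 and 94.5 CPM at E12.5 and between 63.7 and 105 CPM at E11.5, and it was called in no comparison, with FDR from 0.383 to 0.973. Irs2, on chromosome 8, was 38.1, 33.8 and 23.5 CPM in XY controls at E12.5 and 16, 13.9 and 7.69 CPM in XX controls, with no overlap (log2 difference -1.34 ± 0.38, FDR 0.0191). XY KO gonads had 10.5, 18.1 and 27.8 CPM and overlapped both control groups, so that their difference from XY controls, -0.75 ± 0.37, was not called (FDR 0.19). The difference between controls was lost without XX control 3 or XY control 1 (FDR 0.0787 and 0.07) and without the filter on low counts (FDR 0.0586).

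At E11.5 Irs2 was instead highest in XX KO gonads. It stood at 59.1, 55.1 and 55.7 CPM there, above 42.1, 34.4 and 39.5 CPM in XX controls and 40.8 to 41.2 CPM in XY KO gonads, while XY controls ranged from 36 to 59.4 CPM. The difference between XX KO gonads and XX controls was 0.55 ± 0.14 (FDR 0.0483). It was called in 3 of the 12 fits that left out a library, those without an XY control; each of the other 9 left it at an FDR of 0.0668 to 0.228, and scaling by library size alone gave 0.0703 and no filter on low counts 0.0518.

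Igfbp2 and Igfbp5 are neighbours on chromosome 1, 5.5 kb apart and on opposite strands (72824503 to 72852474 and 72857932 to 72874884), and encode 2 of the secreted IGF binding proteins. Igfbp2 had the largest difference of the 10 genes between control gonads at E12.5. It stood at 79.7, 65 and 52.7 CPM in XY controls and at 209, 200 and 209 CPM in XX controls, 110, 144 and 203 CPM in XY KO gonads and 300, 215 and 266 CPM in XX KO gonads. XY controls were lowest without overlap, and XY KO gonads lay between them and XX KO gonads, overlapping only the lower end of the XX controls. XX controls exceeded XY controls 3.13-fold (log2 difference 1.64 ± 0.21, FDR 3.5e-05) and XY KO gonads did so 2.32-fold (1.21 ± 0.20, FDR 5.7e-04), and both were called in all 12 fits without a library. The interaction for Igfbp2 was 0.88 ± 0.28 (FDR 0.058, and 0.0209 in DESeq2).

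At E11.5 Igfbp2 was higher in KO than in control libraries of the same sex, without overlap, although neither difference passed the threshold. XX KO gonads had 236, 318 and 386 CPM against 201 to 229 CPM in XX controls (0.53 ± 0.16, FDR 0.0811), and XY KO gonads had 252, 315 and 276 CPM against 167 to 222 CPM in XY controls (0.48 ± 0.16, FDR 0.055). DESeq2 called both (FDR 0.0228 and 0.0201).

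Igfbp5 was called between KO and control gonads of both sexes at E12.5. At E12.5 it was 1774, 1653 and 2086 CPM in XX controls and 2242, 1592 and 2359 CPM in XY controls, which overlapped (log2 difference -0.17 ± 0.16, FDR 0.533). It rose to 2804, 3371 and 3816 CPM in XX KO gonads and to 4148, 3784 and 3425 CPM in XY KO gonads. All 6 KO libraries were above all 6 controls. The rise was 0.86 ± 0.17 in XX gonads (FDR 0.0134) and 0.87 ± 0.17 in XY gonads (FDR 0.00145), with an interaction of 0.02 ± 0.23 (FDR 0.973). The call in XX gonads was lost without XX control 1, XX control 2 or XX KO 3 (FDR 0.0631 to 0.0756), whereas that in XY gonads was made in all 12 fits. At E11.5 the same differences were 0.35 ± 0.17 (FDR 0.326) and 0.34 ± 0.17 (FDR 0.194).

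Markers of interstitial and mesenchymal cells moved in part with these values. The summed level of 6 such markers at E12.5 was 1725 to 2570 CPM in XX controls, 3669 to 6001 CPM in XY controls, 3933 to 5625 CPM in XX KO gonads and 4135 to 5569 CPM in XY KO gonads. It was therefore higher in XX KO gonads than in XX controls, as Igfbp5 was, with 5 of the 6 genes called, and overlapped between XY KO gonads and XY controls, where Igfbp5 rose and 2 of the 6 markers fell. The part of cell composition in the Igfbp5 result was not tested. A list of 7 mesonephric tubule and duct markers summed to 30.5 to 70.9 CPM in KO gonads at E12.5 and 29.7 to 45.1 CPM in controls, and none of these genes was at 0 in all libraries of a group.

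H19 lies 72.6 kb from Igf2 on the same strand of chromosome 7 (142575529 to 142578143) and is a long noncoding RNA that hosts a microRNA gene. Its level at E12.5 was 2844, 2837 and 2463 CPM in XY controls. It was 5846, 4392 and 5839 CPM in XX controls, 4642, 4823 and 5888 CPM in XY KO gonads and 6410, 5989 and 6182 CPM in XX KO gonads. No library of the last 3 genotypes was below 4392 CPM and no XY control above 2844 CPM. XX controls exceeded XY controls by 0.98 ± 0.14 (FDR 1.1e-04) and XY KO gonads did so by 0.91 ± 0.14 (FDR 2.5e-04), and both calls held in all 12 fits without a library. The interaction was 0.71 ± 0.20 (FDR 0.0276), lost in 6 of 12 (XX control 1 or 3, XX KO 3, XY control 3, XY KO 2 or 3, FDR 0.0519 to 0.0774).

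Igf2 and H19 were thus low together in XY controls at E12.5, the libraries that also stand apart in the Sertoli, Leydig and pre-granulosa marker sums given above, and the part of cell composition in their levels, as in that of Igfbp2, was not tested. The log2 ratio of Igf2 to H19 in CPM was -0.38 ± 0.20 in XY controls (SD, n = 3), -0.67 ± 0.13 in XX controls, -0.48 ± 0.07 in XY KO gonads and -0.75 ± 0.07 in XX KO gonads. At E11.5 the same ratio lay between -0.74 and -0.41 in all 12 libraries. Per kb of exon, H19 exceeded Igf2 in each of the 24 libraries, the ratio of Igf2 to H19 being between 0.244 and 0.381. At E11.5 the H19 means were 5865 ± 480 CPM in XY controls, 6742 ± 434 CPM in XX controls, 6533 ± 497 CPM in XY KO gonads and 7790 ± 817 CPM in XX KO gonads, and no difference was called. Igf2os, an antisense RNA that overlaps Igf2, was at 12.1 to 32.7 CPM at E12.5, far below Igf2.

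**Figure D3:**
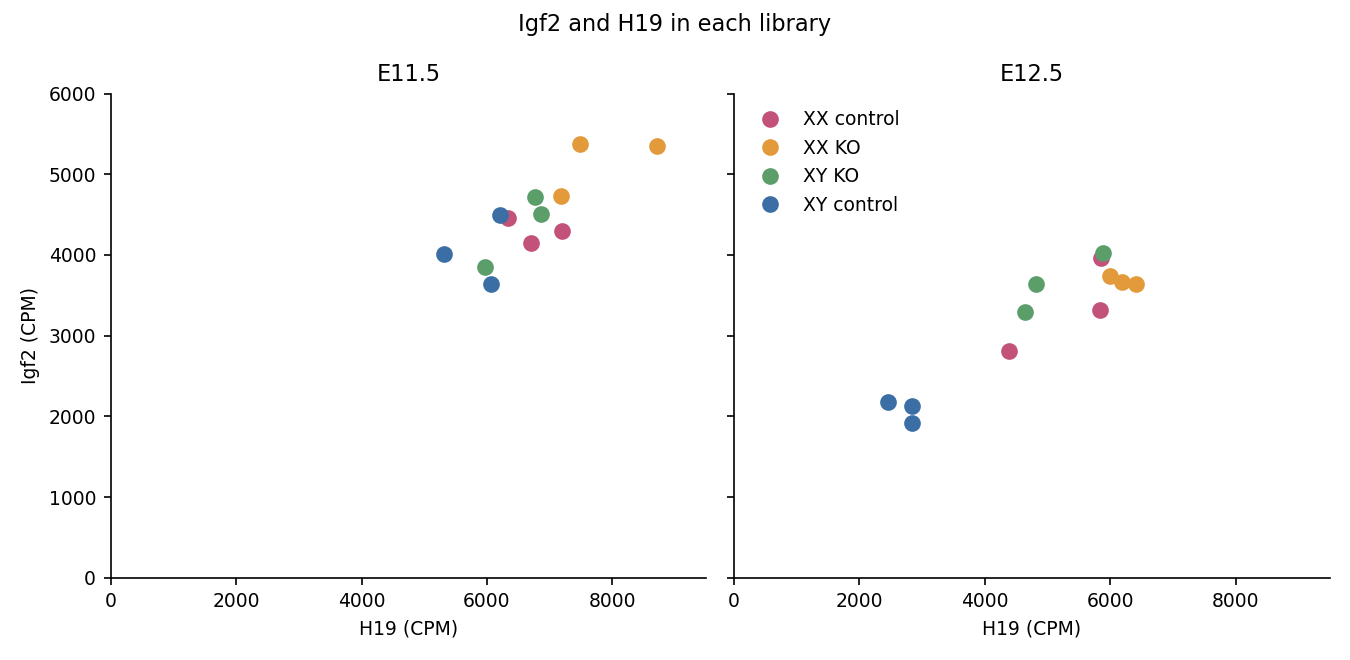
Igf2 against H19 in every library, both in CPM on linear axes from 0, at E11.5 and E12.5; each point is a library, coloured by genotype. At E12.5 the 3 XY controls sit apart at 1920 to 2182 CPM of Igf2 and 2463 to 2844 CPM of H19. At E11.5 the XX KO libraries have the highest Igf2 values (4735 to 5375 CPM), and the other genotypes overlap each other in Igf2. In H19 the XX KO libraries (7176 to 8718 CPM) overlap only the XX controls (6328 to 7194 CPM).

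Other imprinted growth genes were followed as a list of 14, all tested. Between control gonads at E12.5, 4 were higher in XX (Cdkn1c, Phlda2, Slc22a18 and Kcnq1ot1) and 3 were lower (Dlk1, Zdbf2 and Grb10). In XY KO gonads 5 were higher than in XY controls, these same 4 and Peg3, and none was lower. Over all tested genes 23.8% were called between controls, and 20.6% in XY KO gonads, 10.3% as higher. The medians of the list were 0.17 and 0.35 on the log2 scale, beside 0.01 and -0.01 over all genes. The 4 genes lie on chromosome 7 within 835 kb of Igf2, in the neighbouring imprinted domain, while Peg3 lies elsewhere on that chromosome.

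Cdkn1c, an inhibitor of the cell cycle, was 122 to 197 CPM in XY controls at E12.5, 542 to 839 CPM in XX controls and 387 to 645 CPM in XY KO gonads (log2 differences 2.19 ± 0.24, FDR 8.9e-06, and 1.79 ± 0.23, FDR 6.8e-05). Phlda2, a growth-limiting gene best known from the placenta, had 1 to 9 counts per library in XY controls, that is 0.0869 to 0.392 CPM, and reached 34.2 to 49.4 CPM in XX controls and 5.96 to 13.9 CPM in XY KO gonads. Slc22a18, a transporter gene, stood at 0.131 to 0.26 CPM in XY controls, 3.51 to 6.56 CPM in XX controls and 2.57 to 3.58 CPM in XY KO gonads. These 3 genes were lowest in XY controls without overlap, as Igf2 and H19 were. The interaction was called for Cdkn1c (1.45 ± 0.32, FDR 0.00763), Phlda2, Slc22a18 and Kcnq1ot1, with the larger effect in XY. From the same list it was called for Dlk1 in the other direction. Over all tested genes the interaction called 12.9%, 5.9% with a larger effect in XY. Kcnq1ot1, the antisense RNA of the domain, was 31.2 to 34.5 CPM in XY controls, which XX KO gonads at 31.3 to 64.8 CPM overlapped.

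**Figure D4:**
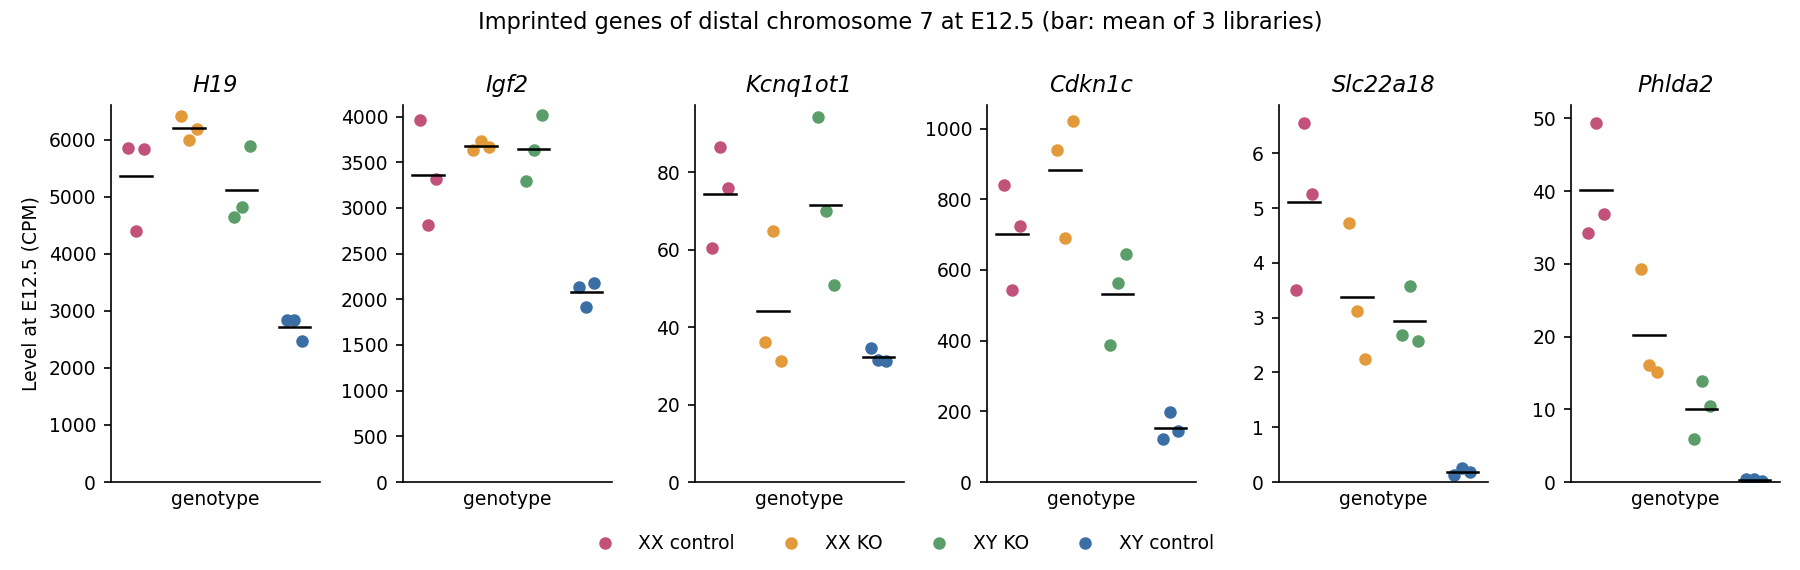
Level of Igf2, H19 and 4 imprinted genes of the neighbouring domain of chromosome 7 in every E12.5 library (CPM, linear axes from 0); bars are means of 3 libraries. The XY controls are the lowest group in each panel and overlap another group only for Kcnq1ot1.

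Within the imprinted list, Dlk1, which encodes a membrane ligand, was higher in KO gonads of both sexes at E11.5 (0.56 ± 0.12, FDR 0.00736, in XY and 0.88 ± 0.12, FDR 0.00103, in XX) and in XX KO gonads at E12.5 (1.83 ± 0.27, FDR 0.00596), where it was lower in XX than in XY controls (-0.87 ± 0.27, FDR 0.0281). Its neighbour Meg3 rose in XX KO gonads at E12.5 (0.74 ± 0.17, FDR 0.0248).

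The other genes of the ligand, receptor and binding protein families form a list of 11, of which 7 were tested at each stage: Ins1, Ins2 and Igfals passed the filter at neither stage, Insl3 only at E12.5 and Igfbp1 only at E11.5. Ins2, the insulin gene next to Igf2, had at most 10 counts in any library. Igfbp3, a major IGF carrier, rose in both KO sexes at E11.5, from 612 to 760 CPM in XY controls to 1186 to 1255 CPM in XY KO gonads (0.84 ± 0.11, FDR 3.4e-04) and from 690 to 749 CPM in XX controls to 1135 to 1403 CPM in XX KO gonads (0.80 ± 0.11, FDR 0.00105). No other gene of the list was called at that stage, whose samples also held the mesonephros.

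At E12.5 Igfbp3 and Igfbp7 were higher in XY than in XX controls. Igfbp7, whose product binds IGF weakly, was 60.9 to 81.3 CPM in XY controls, 6.25 to 8.71 CPM in XX controls and 10.9 to 18.7 CPM in XY KO gonads (-3.37 ± 0.34, FDR 4.0e-06, and -2.30 ± 0.32, FDR 1.0e-04). Igfbp3 was also lower in XX than in XY controls (-1.25 ± 0.26, FDR 0.00257) but not called in XY KO gonads, where 1 of 3 libraries reached 435 CPM. Igfbp7 and Igfbp3 thus stood opposite to Igfbp2 in the control gonads. Igfbp4 was higher in XY KO gonads (0.54 ± 0.18, FDR 0.042) and in XX KO gonads (0.68 ± 0.18, FDR 0.0414) than in the controls of the same sex, as Igfbp5 was. In XX KO gonads Igfbp3 and Igfbp7 rose as well (1.24 ± 0.26, FDR 0.0196, and 1.92 ± 0.32, FDR 0.0089). The XX KO libraries had 17, 19.7 and 44.3 CPM of Igfbp7, so 1 library stood well above the others. In this comparison 5 of 6 interstitial and mesenchymal markers were also called as higher, and their part in these values was not tested. Insrr, the gene of the orphan insulin receptor-related receptor, was lower in XX than in XY controls (-1.80 ± 0.55, FDR 0.0258) and Igfbpl1 higher (0.66 ± 0.21, FDR 0.0302). Insrr was low throughout, at 0.303 to 0.67 CPM (6 to 13 counts) in XX controls and 2.74, 0.737 and 1.22 CPM in XY controls. Insl3, a Leydig cell hormone of the insulin family that is also in the Leydig marker list, was 3.39 to 19.3 CPM in XY controls and at most 0.361 CPM in every other E12.5 library. Igfbp6 was called in no comparison of genotypes at either stage.

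Enzymes that cut binding proteins and so free IGF, and the stanniocalcins that inhibit them, were tested as a list of 5. Pappa2, a protease of IGFBP3 and IGFBP5, rose in both KO sexes at E11.5, from 10.7 ± 2.68 CPM in XY controls to 25.5 ± 5.33 CPM in XY KO gonads (SD, n = 3; log2 difference 1.25 ± 0.29, FDR 0.015 in edgeR) and from 10.3 ± 3.68 CPM in XX controls to 39.3 ± 9.27 CPM in XX KO gonads (1.96 ± 0.29, FDR 0.00378), and in XY KO gonads at E12.5 (1.77 ± 0.34, FDR 0.00181). Stc2 fell in both KO sexes at E11.5 (-1.25 ± 0.14, FDR 8.5e-05, in XY and -0.75 ± 0.14, FDR 0.0103, in XX). At E12.5 both stanniocalcin genes were highest in XY controls. Stc1 was 65.7 to 81 CPM there, 8.83 to 11.4 CPM in XX controls and 17.8 to 23.5 CPM in XY KO gonads, and Stc2 was 29.1 to 49.7, 4.31 to 10.6 and 6.49 to 13 CPM. Pappa, the relative of Pappa2, was lower in XX than in XY controls (-1.52 ± 0.27, FDR 6.4e-04).

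**Figure D5:**
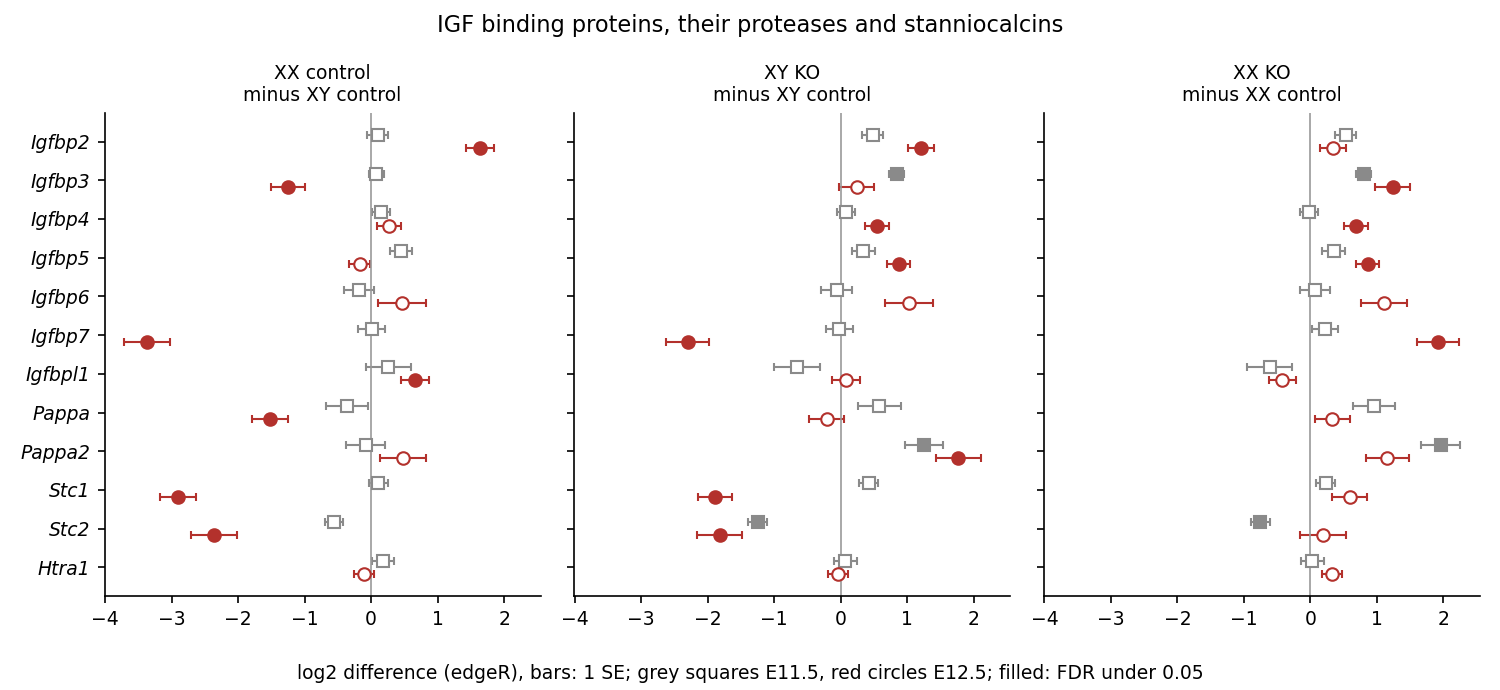
log2 difference with 1 standard error (horizontal axis) for the tested IGF binding protein genes, the proteases Pappa, Pappa2 and Htra1 and the stanniocalcins Stc1 and Stc2, in XX against XY controls and in KO against control gonads of each sex. At E12.5 Igfbp7, Stc1 and Stc2 lie to the left in the first 2 panels, opposite to Igfbp2, and Igfbp4 and Igfbp5 lie to the right in both KO panels.

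Of 10 adaptors and inhibitors that act at the receptor, 4 fell in XY KO gonads at E11.5 and none rose: Grb14, Socs2, Sh2b1 and Ptpn1, with log2 differences of -0.71 ± 0.18 (FDR 0.019), -0.67 ± 0.20 (FDR 0.0418), -0.34 ± 0.09 (FDR 0.0237) and -0.37 ± 0.11 (FDR 0.0353). Over all tested genes 6.81% were called as lower in this comparison. Grb14, Socs2 and Ptpn1 are known as brakes on receptor signalling. At E12.5 Grb14 and Socs2 were lower in XX controls (-2.34 ± 0.17, FDR 1.5e-07, and -1.34 ± 0.18, FDR 5.7e-05) and in XY KO gonads (-2.30 ± 0.17, FDR 2.8e-07, and -1.67 ± 0.18, FDR 9.6e-06) than in XY controls. Grb10, an imprinted inhibitor, was lower in XX than in XY controls (-0.54 ± 0.14, FDR 0.0133), and Irs4 was higher in XY KO gonads (1.63 ± 0.49, FDR 0.0283). Irs4 had only 3 to 14 counts per library in XY controls and 18 to 56 in XY KO gonads. No gene of the list was called in XX KO gonads at either stage, where 3.27% of tested genes were called at E11.5 and 5.26% at E12.5. Grb10 is also in the imprinted list.

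Of 25 genes of the PI3K, AKT and mTOR branch, most were not called. At E11.5 Inppl1, an inositol phosphatase gene, fell in XY KO gonads (-0.39 ± 0.08, FDR 0.00897). In XX KO gonads at that stage no gene of the list was called, beside 3.27% of all tested genes. At E12.5 3 genes were higher in XX than in XY controls and 2 lower, and in XY KO gonads 2 were higher and 3 lower, 5 of 25 in each, which is no more than the 23.8% and 20.6% called over all tested genes. Pik3r3 and Pik3r1, regulatory subunits of PI3K, were higher in both (Pik3r3 by 1.48 ± 0.17, FDR 1.3e-05, and 1.46 ± 0.17, FDR 1.8e-05), and Foxo4 and Inppl1 lower in both. Pik3r3 alone was called in XX KO gonads at E12.5, where it was lower (-0.61 ± 0.16, FDR 0.0443). The list medians between controls and in XY KO gonads, -0.10 and 0.03, were near 0, and no AKT or mTOR kinase gene was called in any comparison.

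Of 5 RNA-binding proteins known to bind Igf2 or H19 RNA or to be part of that network, none was called in XY KO gonads at either stage. Over all tested genes 12.7% were called in that comparison at E11.5 and 20.6% at E12.5, and with 5 genes none called is near that share. Lin28a was higher in XX than in XY controls at E12.5 (1.37 ± 0.23, FDR 4.2e-04), as was Lin28b (0.78 ± 0.25, FDR 0.0345), and at that stage Lin28a and Igf2bp1 were lower in XX KO gonads (-0.85 ± 0.22, FDR 0.0422, and -0.54 ± 0.14, FDR 0.0396). Lin28a was lower in XX KO gonads at E11.5 too (-0.86 ± 0.21, FDR 0.0342). Lin28a is also a gene of germ cells, whose 5 markers summed at E12.5 to 304 to 734 CPM in XX KO gonads and 769 to 1446 CPM in XX controls, and at E11.5 to 37.4 to 116 and 69.9 to 221 CPM, which overlapped, and the part of germ cells in these values was not tested.

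The genes whose log2 CPM followed each called member most closely over the 12 E12.5 libraries are given as a description, since the libraries share genotypes. For Igf2 they were Zfp36l1, Gata6 and Anks1b (Pearson r 0.97, 0.96 and 0.96), and for H19 they were Sp5, Gata6 and Klhdc7a (0.98, 0.97 and 0.97). Igfbp2 went with Grik5, Shc2 and again Sp5 (0.98, 0.98 and 0.97). Igfbp5 went with Adcy2, Antxr1 and D430019H16Rik (0.99, 0.99 and 0.98), and Igf1r with Il1rl2, Kirrel and Plxdc2 (0.97 each). Igf2r went with Mpdz, Sbf2 and Nbea (0.97, 0.96 and 0.96), Irs2 with Piezo1, Lrp5 and Pcdhgb2 (0.95, 0.95 and 0.94) and Igf1 with Ogt, Nedd1 and Nfia (0.91, 0.90 and 0.90).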

How the data were processed

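Per the labels and the study's methods, the authors mapped read pairs to mm10 with align and counted them with featureCounts of the R subread package. The deposited tables give raw counts by gene, with no normalization. Strand setting and annotation are not given in the sources used here. The 10 members, the gene lists and the tests were chosen with earlier results of these data known. Each stage was fitted once with edgeR 4.0.16 (R 4.3.3) on its 12 libraries: genes reaching 1 CPM in 2 or more libraries, TMM scaling, a mean per genotype, quasi-likelihood tests (robust, legacy option) and Benjamini-Hochberg adjustment over all tested genes, called at FDR under 0.05. A standard error is the log2 difference divided by the square root of F. The procedure was tested on simulated data. Named genes are the members and, from the lists, genes called between controls or in XY KO gonads; Meg3 and Igf2bp1, and Igf2os and Airn for their overlap with members, were added after their values were seen. Seed matches were searched in the longest annotated 3′ UTR of 20965 coding genes (GENCODE M21, GRCm38, the assembly of mm10). Alternatives were DESeq2 1.42.0, library-size scaling, no low-count filter, a fit on only the libraries compared, a replicate block, other library sizes and leaving out each library. The Foxl2 tables, with 12 columns of per-sample values, were left out: the members were defined on the other tables, and their mutant columns name no tissue. No libraries of a group agreed within sampling noise. An item withheld from the text is not reported here.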

Additional observations from a re-analysis of the deposited data

Results flagged for a closer look

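At E12.5 the effect of the deletion differed between the sexes for 3 of the 10 genes in the interaction test of edgeR (FDR under 0.05 over all tested genes). For Igf1 the log2 effect in XY gonads exceeded that in XX gonads by 1.24 (SE 0.32, FDR 0.0196): XY gonads went from 84 ± 24.4 CPM in controls to 156 ± 42.6 CPM with the deletion, and XX gonads from 141 ± 8.22 to 111 ± 22.5 CPM (SD, n = 3). For H19 the difference was 0.71 (SE 0.20, FDR 0.0276) and for Igf2 it was 0.68 (SE 0.19, FDR 0.027). All 3 interactions lost their call in some fits that left out a library, with an FDR of at most 0.0529 for Igf1, 0.0774 for H19 and 0.0738 for Igf2. With 3 libraries in each group, single libraries were not tested as outliers.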

How the results depend on the processing

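No called difference of a member changed direction under any alternative. Of 1780 values of single members under an alternative, 64 lost their call, 20 gained one and 57 changed sign without being called in either fit. At E11.5 the number of members called in XY KO gonads was 1, and became 2 in DESeq2, 0 with only the libraries compared and 1 with the replicate number as a block (Igfbp2 in place of Igf2r, FDR 0.0348). In XX KO gonads it was 2, and became 3 in DESeq2 and 1 with library-size scaling, without the filter on low counts and with the replicate block. Leaving out each library in turn gave 0 to 2 members between controls, 0 to 4 in XY KO, 0 to 2 in XX KO, 0 to 1 between the KO sexes and 0 in the interaction at E11.5, and 4 to 6, 4 to 6, 0 to 1, 0 to 3 and 0 to 4 at E12.5. Same-numbered libraries did not deviate together on average (mean r of their deviations 0.03 at E11.5 and -0.03 at E12.5). Single pairs ran from -0.20 to 0.35 at E11.5 and from -0.38 to 0.29 at E12.5. No pairing by number was seen, but a mean over 18 pairs cannot exclude it. With the replicate block the E12.5 counts were 6 between controls, 5 in XY KO gonads, where Igf2r was lost (FDR 0.0635), 1, 0 and 3. Over all genes DESeq2 called over 1.5 times as many as edgeR in 6 comparisons: at E11.5 439 against 126 between controls, 778 against 465 in XX KO, 301 against 12 between the KO sexes and 141 against 5 in the interaction, and at E12.5 1456 against 755 in XX KO and 65 against 22 between the KO sexes. In XX KO gonads at E11.5 the share of all calls that were higher was 55.5%, and 41.8% with library-size scaling. Scaling by library size alone, without TMM, moved the mean levels by at most 1.03 times, and 1 of the 80 by more than its SD. With 8mer matches alone 2 of 9 members held a seed match, in place of 6. An alternative with library sizes over all genes was added after seeing the data. With 3 libraries a group, differences of lowly counted genes such as Irs2 (123 to 1119 counts at E12.5) carry wide errors.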
